A study of Mus musculus with 9 samples.

Results

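The genes described here are the 10 numbered subunits of the RNA exosome, Exosc1 to Exosc10. They were selected by symbol, as 10 of the 24318 genes in the deposited expression tables, and all 10 were measured in every library. RNA was sequenced after ribosomal RNA depletion from N2A cells (Neuro2A), a mouse neuroblastoma line, in 9 libraries. There were 3 libraries from cells given a scramble siRNA (genotype label WT), 3 from cells given an siRNA against EXOSC3 (EXOSC3 knockdown) and 3 from cells given an siRNA against DDX1, a putative RNA helicase (DDX1 knockdown). All 9 libraries came from the same line, transfected with its siRNA by a lipid reagent and otherwise labelled untreated, and the methods describe 3 plates per condition. A single cell line was used, which limits how far the values stand for other cells, and the sources used here do not say which EXOSC3 siRNA was sequenced.

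The RNA exosome trims and degrades RNA from the 3′ end, both in the nucleus and in the cytoplasm. Exosc1, Exosc2 and Exosc3 form a cap of RNA-binding subunits on a ring of proteins that resemble the bacterial enzyme RNase PH, and the ring is built from the pairs Exosc4 with Exosc9, Exosc5 with Exosc8 and Exosc6 with Exosc7. Cap and ring are catalytically inert in mammals and thread RNA towards the nuclease Dis3 or Dis3l, while Exosc10 is a separate exonuclease that joins the complex in the nucleus and nucleolus.

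Levels are given as FPKM (fragments per kilobase of transcript, scaled for library size in a way the sources used here do not give), so they are per length. Each knockdown was compared with the scramble columns of its own table. The 2 tables hold the same 3 scramble libraries on slightly different scales, so the comparisons share their controls and are not independent. Fold changes are on the log2(FPKM + 1) scale, and adjusted p-values are limma's, with Benjamini-Hochberg correction over all tested genes and a threshold of 0.05. With 3 libraries against 3, the two-sided exact permutation test cannot go below p = 0.1. In bulk RNA, fewer cells of a kind and less RNA per cell cannot be told apart.

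Depth and cell type markers were checked first. Relative depth, read from the spacing of low values, ran from 0.827 to 1.20 of that of scramble replicate 1, and absolute depth is unknown. In the scramble libraries 9 of 10 neuroblastoma markers had a mean of at least 1 FPKM, with a summed level of 394 to 437 FPKM, and the exception was Th, at 0.143 to 0.223 FPKM. The same list summed to 662 to 700 FPKM in siEXOSC3 libraries and to 417 to 462 FPKM in siDDX1 libraries, and its part in the results below was not tested. None of 4 fibroblast markers reached a mean of 1 FPKM in any group, and 1 of 3 leukocyte markers did so in scramble, Cd68 at 1.83, 0.670 and 1.04 FPKM, while Ptprc and Aif1 were listed at 0 there. The 3 leukocyte markers summed to 0.357 to 1.83 FPKM and the 3 glial markers to 2.36 to 2.97 FPKM over all groups, the latter mostly from Mbp at 1.72 to 2.42 FPKM. Ddx1 itself was at 130, 126 and 119 FPKM in scramble and at 28.0, 28.7 and 34.8 FPKM in siDDX1 libraries (24.4% of scramble, log2 change -2.01, limma adjusted p = 9.53e-05).

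In scramble cells the subunit RNAs spanned about 5-fold. Exosc2 was highest at 82.6 ± 1.47 FPKM (SD, n = 3), above Exosc8 at 55.5 ± 1.66 FPKM. Exosc10 (47.5 ± 2.09 FPKM) and Exosc3 (44.1 ± 1.56 FPKM) overlapped in their libraries. In a middle group of 4 subunits each overlapped with the next in order: Exosc7 (32.2 ± 1.18 FPKM), Exosc1 (32.2 ± 3.09 FPKM), Exosc4 (29.3 ± 1.24 FPKM) and Exosc9 (29.1 ± 1.89 FPKM). Exosc7 was nevertheless above Exosc4 and Exosc9 in every scramble library. Exosc6 (19.4 ± 0.450 FPKM) and Exosc5 (16.2 ± 1.21 FPKM) were lowest and separate from each other. Partners in the ring were thus unequal in RNA level in 2 of 3 pairs: in the scramble libraries the ratio of Exosc5 to Exosc8 was 0.278 to 0.313 and that of Exosc6 to Exosc7 was 0.577 to 0.635, while that of Exosc4 to Exosc9 was 0.905 to 1.07.

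**Figure D1:**
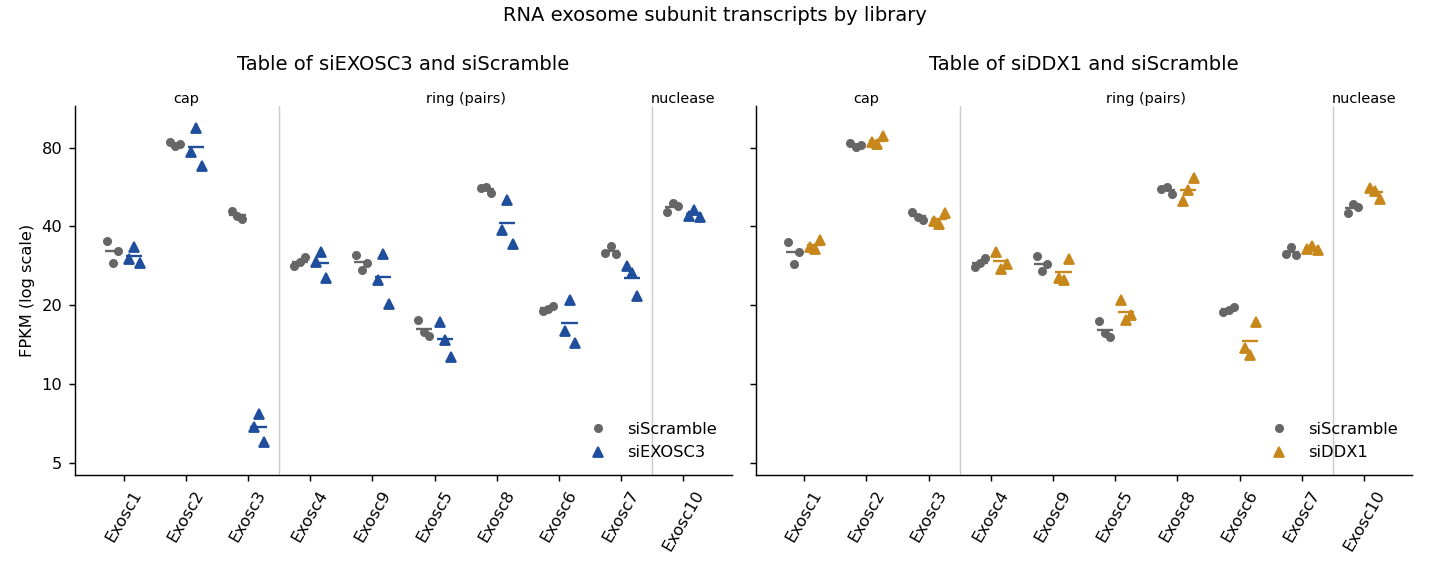
Each point is the FPKM of 1 subunit in 1 library (log axis), with the siEXOSC3 table in one panel and the siDDX1 table in the other, and bars mark group means. Exosc3 drops to between 6.01 and 7.68 FPKM in siEXOSC3 libraries, where the other subunits lie between 12.7 and 95.2 FPKM.

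Exosc3, the cap subunit targeted by the siRNA, fell in EXOSC3-depleted cells and did not pass the test in DDX1-depleted cells. Its level was 45.8, 43.8 and 42.7 FPKM in the scramble libraries and 6.84, 7.68 and 6.01 FPKM in the siEXOSC3 libraries. All 3 knockdown libraries lay far below all 3 scramble libraries, at 15.5% of the scramble mean. The log2 change was -2.53 (SE 0.0881, n = 3 against 3, limma adjusted p = 1.11e-05, exact permutation p = 0.1), the most negative among the 11242 genes tested. It was past the threshold in each of 6 fits that left out 1 library, with adjusted p at most 7.78e-04. In siDDX1 cells Exosc3 was at 41.8, 40.7 and 45.0 FPKM against 45.4, 43.4 and 42.2 FPKM in scramble. These groups overlapped, and the log2 change was -0.04 (95% interval -0.18 to 0.10, limma adjusted p = 0.715). The gene lies on the minus strand of chr4:45329485-45355604 (mm9), with 5 exon blocks and 1324 exonic bases.

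The other 2 cap subunits did not pass the test in either knockdown. Exosc1 (chr19:41997470-42007804, minus strand), a subunit with an S1 RNA-binding domain, was at 35.2, 29.0 and 32.3 FPKM in scramble and at 30.1, 33.4 and 28.9 FPKM in siEXOSC3 libraries. Its groups overlapped, and the log2 change was -0.06 (95% interval -0.26 to 0.14, limma adjusted p = 0.631). In siDDX1 libraries it was at 33.3, 32.9 and 35.4 FPKM, within reach of its scramble values of 34.9, 28.8 and 31.9 FPKM (log2 change 0.09, limma adjusted p = 0.477). Exosc2 (chr2:31526235-31536870, plus strand), which carries S1 and KH RNA-binding domains, was at 84.0, 81.1 and 82.6 FPKM in scramble and at 77.3, 95.2 and 67.9 FPKM in siEXOSC3 libraries. The siEXOSC3 values of Exosc2 lay on both sides of the scramble values, with a coefficient of variation of 17.3% against 1.78% in scramble. Its log2 change was -0.06 (95% interval -0.31 to 0.20, limma adjusted p = 0.720). In siDDX1 libraries Exosc2 was at 83.9, 82.4 and 88.7 FPKM (103.9% of scramble, limma adjusted p = 0.554), with overlap.

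Within the ring, Exosc7 and Exosc8, which belong to different pairs, were past the threshold in EXOSC3-depleted cells, and Exosc6 was past it in DDX1-depleted cells. All 3 changes were decreases to between 74.1% and 79.0% of scramble. Each of these calls was lost in some fits with 1 library left out.

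Exosc8 (chr3:54532600-54539315, minus strand), the partner of Exosc5, was at 56.2, 56.8 and 53.7 FPKM in scramble and at 38.7, 50.5 and 34.2 FPKM in siEXOSC3 libraries. All siEXOSC3 values were lower than all scramble values, with siEXOSC3 replicate 2 nearest to them. The mean was 74.1% of scramble (log2 change -0.44, SE 0.125, limma adjusted p = 0.0288, exact permutation p = 0.1). The adjusted p rose above 0.05 without scramble replicate 1 (0.0909), 2 (0.0852) or 3 (0.0752), without siEXOSC3 replicate 1 (0.0960) and when low genes were not filtered out (0.0677), while the log2 change stayed between -0.59 and -0.32. In siDDX1 libraries Exosc8 was at 50.0, 54.9 and 61.0 FPKM, around its scramble values of 55.7, 56.4 and 53.0 FPKM. The groups overlapped, and its siDDX1 mean was 100.5% of scramble (95% interval of the log2 change -0.18 to 0.18, limma adjusted p = 0.983).

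Exosc7 (chr9:123022333-123045247, plus strand), the partner of Exosc6, was at 31.6, 33.6 and 31.4 FPKM in scramble and at 28.2, 26.5 and 21.6 FPKM in siEXOSC3 libraries. The groups did not overlap. The mean was 79.0% of scramble (log2 change -0.34, SE 0.0973, limma adjusted p = 0.0306, exact permutation p = 0.1). Without scramble replicate 1, 2 or 3 the adjusted p was 0.0864, 0.0984 and 0.0781, and without a filter on low genes it was 0.0614. The log2 change lay between -0.41 and -0.23 over the fits that left out 1 library. In siDDX1 libraries Exosc7 was at 32.9, 33.8 and 32.5 FPKM against 31.4, 33.3 and 31.0 FPKM in scramble, with overlap (log2 change 0.05, 95% interval -0.08 to 0.18, limma adjusted p = 0.587). Whether either ring subunit responded differently to the 2 siRNAs was not tested.

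Exosc6, which pairs with Exosc7, moved in the other knockdown. In siDDX1 libraries it was at 13.7, 12.9 and 17.2 FPKM, against 18.9, 19.2 and 19.7 FPKM in scramble. The groups did not overlap, and siDDX1 replicate 3 was the nearest to the scramble values. The mean was 75.7% of scramble (log2 change -0.39, SE 0.101, limma adjusted p = 0.0460, exact permutation p = 0.1). This call is borderline. The adjusted p was also above 0.05 without a filter on low genes (0.0924), with quantile normalization (0.0523), with median centring (0.0527) and with no intensity trend (0.0587). The call held in 1 of 6 fits with a library left out, the one without siDDX1 replicate 3 (adjusted p = 8.88e-04), and was lost without scramble replicates 1 (0.144), 2 (0.112) and 3 (0.151) and without siDDX1 replicates 1 (0.131) and 2 (0.141). In siEXOSC3 libraries Exosc6 was at 16.0, 20.9 and 14.3 FPKM against 19.1, 19.4 and 19.9 FPKM. Here siEXOSC3 replicate 2 was above and the other replicates below the scramble values, and the log2 change was -0.20 (95% interval -0.47 to 0.08, limma adjusted p = 0.245). Without siEXOSC3 replicate 2 it was -0.34 (adjusted p = 0.00752), and without siEXOSC3 replicate 3 it was -0.08 (adjusted p = 0.571). Exosc6 has no entry of its own in the mm9 gene models used for positions (GENCODE vM1). Its RefSeq start site matches base 4425 of the 5750-base Aars-001 transcript, past the end of that transcript's coding sequence at base 3290, so fragments of both genes may not be separable. Aars, alanyl-tRNA synthetase, was at 324, 311 and 326 FPKM in scramble and 293, 279 and 313 FPKM in siDDX1 libraries (log2 change -0.12, limma adjusted p = 0.270), and it fell in siEXOSC3 libraries, from 327, 314 and 330 to 246, 257 and 241 FPKM (log2 change -0.38, limma adjusted p = 0.00435). Its part in the Exosc6 values was not tested.

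The remaining ring subunits, Exosc4, Exosc5 and Exosc9, were not past the threshold in either comparison. Exosc4 (chr15:76157827-76161107, plus strand) was at 28.1, 29.3 and 30.6 FPKM in scramble and at 29.4, 31.9 and 25.3 FPKM in siEXOSC3 libraries, on both sides of the scramble range (log2 change -0.03, 95% interval -0.23 to 0.18, limma adjusted p = 0.831). In siDDX1 libraries Exosc4 was at 31.8, 27.6 and 28.8 FPKM, 101.1% of scramble (limma adjusted p = 0.914). Exosc9 (chr3:36451528-36464651, plus strand), the partner of Exosc4, was at 31.1, 27.3 and 29.0 FPKM in scramble and at 25.0, 31.4 and 20.2 FPKM in siEXOSC3 libraries. The groups overlapped through siEXOSC3 replicate 2, the highest of all 6 values. Its log2 change was -0.20 (95% interval -0.52 to 0.12, limma adjusted p = 0.289). Without siEXOSC3 replicate 2 this change was -0.36 (adjusted p = 0.0191), and without siEXOSC3 replicate 3 it was -0.05 (adjusted p = 0.730). In siDDX1 libraries Exosc9 was at 25.3, 25.0 and 29.9 FPKM, 92.7% of scramble and overlapping (limma adjusted p = 0.427).

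Exosc5 (chr7:26444172-26453050, plus strand), the partner of Exosc8, was at 17.6, 15.8 and 15.2 FPKM in scramble and at 17.3, 14.8 and 12.7 FPKM in siEXOSC3 libraries. These overlapped (log2 change -0.12, 95% interval -0.37 to 0.13, limma adjusted p = 0.422). Over the fits that left out 1 library, the log2 change ran from -0.23 to -0.02 (limma adjusted p 0.159 to 0.908). With the GC and length trend removed the log2 change was -0.29 (limma adjusted p = 0.0718, and 0.0431 with a replicate block). In siDDX1 libraries Exosc5 was at 20.9, 17.6 and 18.3 FPKM against 17.4, 15.7 and 15.1 FPKM in scramble. All 3 siDDX1 values exceeded all 3 scramble values, though the closest were 17.56 against 17.43 FPKM. The mean was 117.8% of scramble (log2 change 0.22, 95% interval 0.02 to 0.42), but the limma adjusted p was 0.128. With the same trend removed the log2 change was 0.11 (limma adjusted p = 0.410).

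Exosc10 (chr4:147932538-147956510, plus strand), the nuclear exonuclease, was at 45.2, 49.3 and 48.0 FPKM in scramble and at 43.7, 46.3 and 43.5 FPKM in siEXOSC3 libraries, with overlap (log2 change -0.09, 95% interval -0.24 to 0.05, limma adjusted p = 0.295). In siDDX1 libraries it was at 56.2, 54.8 and 50.9 FPKM against 44.9, 48.9 and 47.4 FPKM in scramble. The siDDX1 values were all higher, at a mean of 114.7% of scramble (log2 change 0.19, 95% interval 0.05 to 0.34), and the limma adjusted p was 0.0852. Without siDDX1 replicate 3, the lowest of the 3, the change was 0.23 with an adjusted p of 0.0171.

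**Figure D2:**
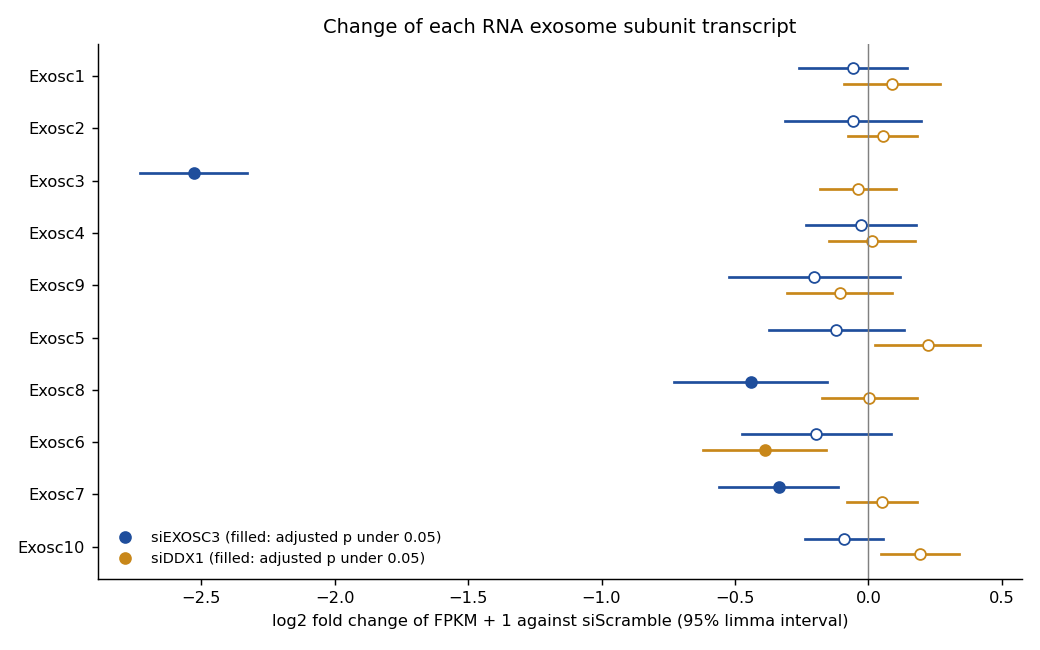
Points are the log2 fold changes of the 10 subunits on the log2(FPKM + 1) scale, knockdown against scramble, with 95% intervals from limma (n = 3 against 3). Exosc3, Exosc7 and Exosc8 are past the threshold in siEXOSC3 and Exosc6 in siDDX1, all as decreases.

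Counted together, 3 of 10 subunits were past the threshold in siEXOSC3 libraries, or 2 of 9 besides the siRNA target, where 32.4% of all 11242 tested genes were. All 3 were decreases, a call made for 15.7% of tested genes. Without siEXOSC3 replicate 2 the count was 5, with Exosc6 and Exosc9 added, beside 43.5% of all tested genes past the threshold in that fit. Without scramble replicate 1, 2 or 3 it was 1, Exosc3 alone, beside 14.3%, 20% and 17.7% of genes. Without siEXOSC3 replicate 1 it was 2, beside 18.2% of genes. By limma 0 of 10 were increased, beside 16.7% of tested genes, and 0 of 10 were higher at an unadjusted p under 0.05, beside 22.0% of tested genes. The log2 change was negative for all 9 other subunits, with a median of -0.12 beside -0.01 over all tested genes, of which 5840 were negative. Under quantile normalization these medians were -0.08 and -0.03. With the GC and length trend removed they were -0.14, without a value for Exosc6, and -0.03. The sign turned for Exosc1 without scramble replicate 1 (0.01), for Exosc2 without siEXOSC3 replicate 3 (0.05) and for Exosc4 without scramble replicate 3 (0.00) or siEXOSC3 replicate 3 (0.06). All 3 siEXOSC3 libraries lay below all 3 scramble libraries for Exosc3, Exosc7 and Exosc8, as they did for 25.9% of tested genes. They lay above for 0 subunits and for 23.8% of tested genes, so that 3 of 10 subunits were separated in either direction beside 49.7% of tested genes.

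In siDDX1 libraries 1 of 10 subunits was past the threshold, beside 10.6% of 11104 tested genes, and it was decreased, beside 5.03%. By limma 0 of 10 were increased, beside 5.61% of tested genes, and 2 (Exosc5 and Exosc10) were higher at an unadjusted p under 0.05, beside 15.1% of tested genes. Log2 changes were positive for 7 subunits and negative for 3, with a median of 0.03 beside 0.00 over all tested genes. Exosc4 turned negative once the GC and length trend was removed (-0.04), and Exosc8 did so under quantile normalization (-0.03), and each of them turned negative in 2 fits with a library left out. Without siDDX1 replicate 3 the count of increased subunits was 1 (Exosc10), beside 1818 of 11104 tested genes increased. In that fit 31.8% of all tested genes were past the threshold in either direction. Without any other single library the count of decreased subunits was 0, beside 1.47% to 4.69% of genes past the threshold in either direction. All 3 siDDX1 libraries lay above all 3 scramble libraries for Exosc5 and Exosc10 (17% of tested genes) and below them for Exosc6 (17.8% of tested genes), so that 3 of 10 subunits were separated beside 34.7% of tested genes.

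The siEXOSC3 libraries differed among themselves in subunit level. Replicate 3 was the lowest of the 3 siEXOSC3 libraries for 10 of 10 subunits, whereas it was lowest for 42.9% of all tested genes. Replicate 2 was highest for 8 of 10 subunits and for 40.3% of tested genes. The summed FPKM of the 9 subunits other than Exosc3 was 348, 341 and 343 in scramble and 306, 351 and 269 in siEXOSC3 libraries, so replicate 2 lay above and the others below the scramble values (exact permutation p = 0.4). In siDDX1 libraries the sum was 348, 342 and 363 FPKM against 345, 339 and 339 FPKM (exact permutation p = 0.2).

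**Figure D3:**
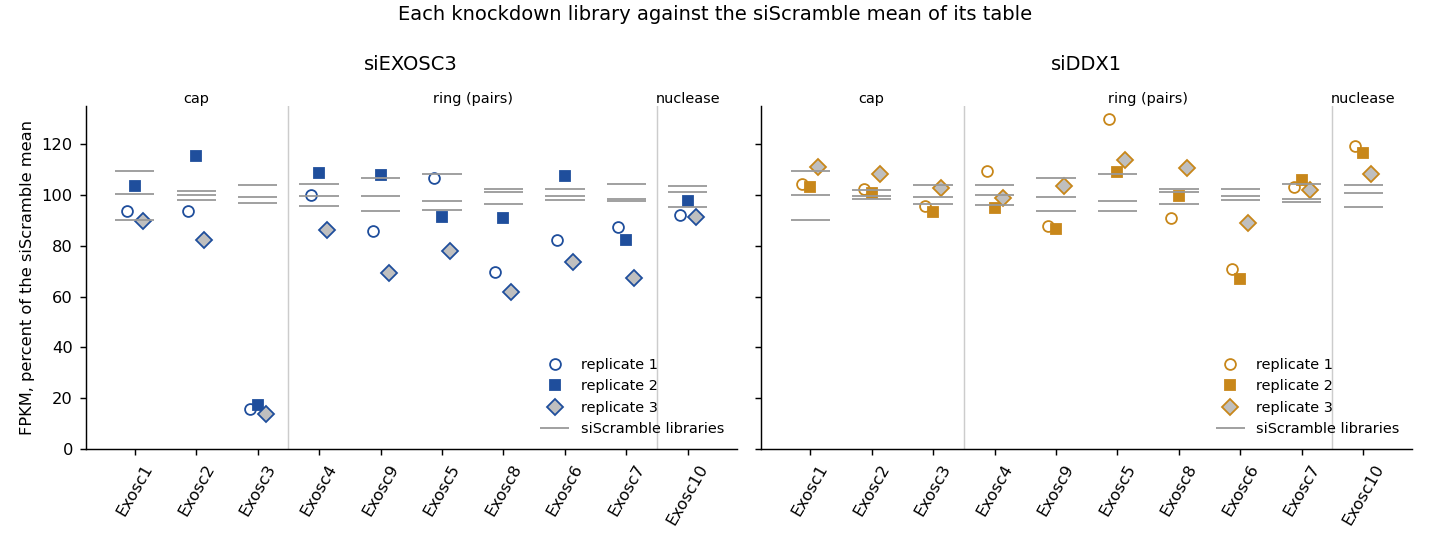
Each point is the FPKM of 1 subunit in 1 knockdown library as a percent of the mean of the scramble libraries in the same table. In the siEXOSC3 panel replicate 3 has the lowest point for each of the 10 subunits, and Exosc3 averages 15.5%.

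Shares within a library do not depend on how libraries were scaled. Exosc3 amounted to 13.2%, 12.8% and 12.5% of the summed FPKM of the other 9 subunits in scramble and to 2.24%, 2.19% and 2.24% in siEXOSC3 libraries, which were near-equal although their sums were not. In siDDX1 libraries it amounted to 12.0%, 11.9% and 12.4%, all below the scramble values, though the closest were 12.41% against 12.47%. The share of Exosc8 in that sum was 16.1%, 16.6% and 15.7% in scramble and 12.7%, 14.4% and 12.7% in siEXOSC3 libraries, with no overlap. Exosc2 took a larger share, 25.3%, 27.1% and 25.3% against 24.1%, 23.7% and 24.1%, and so did Exosc4, at 9.61%, 9.10% and 9.43% against 8.08%, 8.58% and 8.93%. For Exosc7 the shares overlapped, at 9.22%, 7.54% and 8.06% against 9.09%, 9.83% and 9.16% (exact permutation p = 0.3). Among the 9 subunits in that sum, Exosc6 was the one whose share in siDDX1 libraries did not overlap with scramble, at 3.93%, 3.77% and 4.74% against 5.47%, 5.67% and 5.82%. Each separated share had an exact permutation p of 0.1, the smallest that 3 against 3 allows, and shares of 1 sum are not independent of one another.

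The order of the subunits by mean level differed between groups. In siEXOSC3 libraries Exosc3 moved from rank 4 to rank 10, separate from Exosc5 at 14.9 ± 2.31 FPKM. Exosc10 stood above Exosc8 and Exosc7 below Exosc1, Exosc4 and Exosc9 there, and the neighbours by rank in these stretches overlapped. All Exosc7 values there, up to 28.2 FPKM, were nevertheless below all Exosc1 values, from 28.9 FPKM. In siDDX1 libraries Exosc6 (14.6 ± 2.28 FPKM) stood below Exosc5 (18.9 ± 1.75 FPKM), with no overlap between the libraries of these subunits, and Exosc1 stood above Exosc7, with overlap. The ratio of Exosc6 to its partner Exosc7, examined after the values were seen, was 0.602, 0.577 and 0.635 in scramble and 0.416, 0.382 and 0.528 in siDDX1 libraries.

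Because the library kit did not keep strand, reads of overlapping genes on opposite strands cannot be told apart, and 4 subunit genes share exonic bases with a neighbour in GENCODE vM1. Exosc9 shares 512 exonic bases with Ccna2, which encodes cyclin A2. Ccna2 was at 85.8, 85.1 and 82.5 FPKM in scramble and at 54.0, 66.0 and 48.2 FPKM in siEXOSC3 libraries (log2 change -0.60, limma adjusted p = 0.00570), where replicate 2 was the highest and replicate 3 the lowest, as for Exosc9. In siDDX1 libraries Ccna2 was at 65.3, 68.3 and 71.5 FPKM (log2 change -0.29, limma adjusted p = 0.0214, above 0.05 in 5 of 6 fits with a library left out). Exosc4 shares 385 exonic bases with Oplah, Exosc8 shares 85 with Fam48a (Supt20) and Exosc3 shares 53 with Dcaf10. Supt20 had log2 changes of -0.11 in siEXOSC3 (limma adjusted p = 0.265) and -0.10 in siDDX1 libraries (limma adjusted p = 0.373). The part of these neighbours in the subunit values was not tested.

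Exosc7 and Exosc8 each start close to a gene on the opposite strand, and the short stretch between the neighbour and the subunit gene is shown because these are the ring subunits that fell in siEXOSC3 libraries. In mm9 Exosc8 starts 146 bases from Alg5 and Exosc7 starts 10 bases from Zdhhc3. A close start is not particular to these subunits. Exosc1, which did not pass the test in either knockdown, starts 158 bases from Zdhhc16 on the opposite strand. The sequences are from RefSeq on GRCm38.p6, 5′ to 3′ in the direction of the subunit gene. Each runs from the neighbour's RefSeq boundary to the subunit's GENCODE vM1 start, which leaves out the 29 (Exosc8) and 16 (Exosc7) bases next to the RefSeq start, so its length need not equal the mm9 gap. Of the 10 subunit symbols, 8 matched the promoter table used here. Motifs were searched on both strands. The ETS-type motif was taken as CCGGAAG and the E-box as CACGTG, while the remaining ones were the CCAAT box, the GC box with the letters GGGCGG and an NRF1-type motif with any base allowed at the fifth position. Capitals mark the matches, the GC box in Exosc8 and the NRF1-type motif in Exosc7, both read from the other strand. The GC box also matched in the longer windows of Exosc3 (237 bases) and Exosc5 (250 bases), and Exosc5 did not pass the test in siEXOSC3 libraries.
Exosc8, chr3:54735394-54735538, minus strand: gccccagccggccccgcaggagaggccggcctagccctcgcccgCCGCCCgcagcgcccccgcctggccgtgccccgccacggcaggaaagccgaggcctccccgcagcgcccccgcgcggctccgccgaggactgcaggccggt
Exosc7, chr9:123113195-123113214, plus strand: gatgacGCGCAGGCGCggtg
In windows of the same length and place in 32851 RefSeq promoters, the GC box was present in 25.2% (145 bases, as for Exosc8) and the NRF1-type motif in 0.381% (20 bases, as for Exosc7). The gene sharing each stretch did not pass the test in siEXOSC3 libraries: Alg5 had a log2 change of -0.00 (limma adjusted p = 0.981) and Zdhhc3 of -0.09 (limma adjusted p = 0.394), against -0.44 for Exosc8 and -0.34 for Exosc7.

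The enzymes and cofactors that work with the RNA exosome were examined as a list of 20 genes, all of them tested. In siEXOSC3 libraries 2 of 20 were decreased, beside the 15.7% of all tested genes. The count past the threshold in either direction was 1 with median centring (31.4% of all tested genes) and 1 without a filter on low genes (18.4%). It was 0 with a replicate block (21.8%), and 1 with the GC and length trend removed and the block (22.9%). It was 7 without siEXOSC3 replicate 2 and 4 without siEXOSC3 replicate 3, beside 43.5% and 28.9% of all tested genes, and 0 without siEXOSC3 replicate 1 or any 1 scramble replicate. By limma 0 of 20 were increased, beside 16.7% of tested genes. At an unadjusted p under 0.05, 0 of 20 were higher and 6 lower, beside 22.0% and 23.4% of tested genes. The median log2 change was -0.13, with 14 genes negative. Skiv2l2 (Mtrex), the nuclear helicase MTR4 that feeds RNA to the complex, was at 88.4, 91.7 and 86.6 FPKM in scramble and at 74.9, 80.2 and 74.6 FPKM in siEXOSC3 libraries. All siEXOSC3 values were lower (log2 change -0.21, limma adjusted p = 0.0314), and the call held in 2 of 6 fits with a library left out, with adjusted p up to 0.112. Zc3h18, which links the nuclear cap-binding complex to exosome adaptors, was at 44.7, 43.0 and 48.4 FPKM in scramble and at 34.8, 40.8 and 32.1 FPKM in siEXOSC3 libraries. Its groups did not overlap (log2 change -0.33, limma adjusted p = 0.0283), and its call also held in 2 of 6 such fits, with adjusted p up to 0.104.

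The catalytic subunits did not pass the test in either knockdown. Dis3, the main nuclear nuclease, was at 35.7, 35.7 and 34.9 FPKM in scramble and at 30.9, 33.9 and 26.6 FPKM in siEXOSC3 libraries, all lower (log2 change -0.22, limma adjusted p = 0.0915). In siDDX1 libraries Dis3 was at 34.6, 37.1 and 37.9 FPKM, with overlap (log2 change 0.05, limma adjusted p = 0.575). Dis3l, its cytoplasmic counterpart, had log2 changes of -0.17 in siEXOSC3 (limma adjusted p = 0.144) and -0.09 in siDDX1 libraries (limma adjusted p = 0.411).

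In siDDX1 libraries 1 of the 20 genes was decreased, beside 5.03% of all tested genes. The count past the threshold in either direction was 0 without a filter on low genes (4.22% of all tested genes) and 3 with a replicate block (17%). It was 2 with the GC and length trend removed (13%) and 4 with both (22.2%). It was 3 without siDDX1 replicate 3, beside 31.8% of all tested genes, and 0 without any other single library. By limma 0 were increased, beside 5.61%. At an unadjusted p under 0.05, 1 (Zcchc7) was higher, beside 15.1% of tested genes, and 2 were lower, beside 1667 of 11104 tested genes. Zfc3h1, the scaffold that joins MTR4 to polyadenylated nuclear RNA, was at 25.1, 25.3 and 27.0 FPKM in scramble and at 11.5, 14.0 and 20.4 FPKM in siDDX1 libraries. All siDDX1 values were lower, with replicate 3 nearest to scramble, and the mean was 59.3% of scramble (log2 change -0.75, SE 0.170, limma adjusted p = 0.0295). The call held in 1 of 6 fits with a library left out, the one without siDDX1 replicate 3 (adjusted p = 2.29e-04), and the highest adjusted p among the others was 0.118. In siEXOSC3 libraries Zfc3h1 was at 24.6, 21.5 and 23.9 FPKM against 25.3, 25.5 and 27.3 FPKM (log2 change -0.15, limma adjusted p = 0.136). The median log2 change of the 20 genes in siDDX1 libraries was -0.01, with 10 positive and 10 negative.

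**Figure D4:**
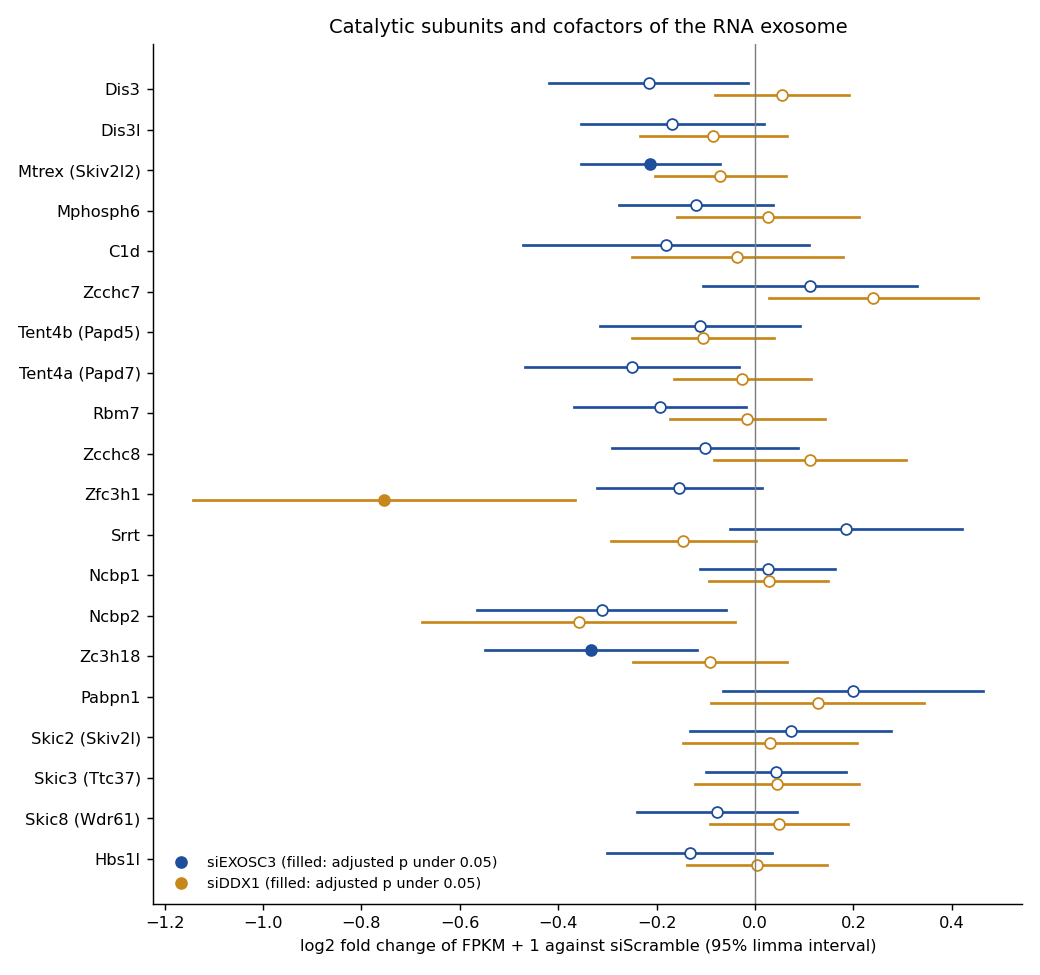
Points are log2 fold changes on the log2(FPKM + 1) scale with 95% intervals from limma for the 20 catalytic subunits and cofactors, for each knockdown against scramble. Skiv2l2 and Zc3h18 are past the threshold in siEXOSC3 and Zfc3h1, at -0.75, in siDDX1.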

How the data were processed

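The authors aligned paired reads from nondirectional, ribosomal RNA-depleted libraries to mm9 with TopHat2 2.1.0, sorted them with SAMtools and ran Cuffdiff 2.2.1, per the methods and the submitters' processing notes. The annotation and normalization given to Cuffdiff are not given in the sources used here. The deposited values are FPKM per gene and library, in 1 table per knockdown, without counts, so absolute depth and counting error are unknown. Members and gene lists were chosen with earlier results of these data known.

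A gene was tested if its FPKM averaged 1 or more over a table's 6 libraries, using limma 3.58.1 (R 4.3.3) on log2(FPKM + 1), with an intensity trend, two-sided, with Benjamini-Hochberg adjustment over all tested genes. The fit was tested on simulated data. All 10 subunits passed the filter in both tables. Ratios and shares within libraries were compared by exact permutation tests. Every subunit was named, as were Dis3, Dis3l and Mtrex and the listed cofactors past the threshold. Zcchc7 and the neighbouring genes were named after their values were seen. Positions are from GENCODE vM1 (NCBIM37, mm9) and promoter sequences from RefSeq (GRCm38.p6). Alternatives were a pseudocount of 0.1, no filter, a mean of at least 5, quantile normalization, median centring, no trend, a replicate block, a loess correction for GC content and length (span 0.3), and leaving out each library. Figures were drawn with matplotlib 3.10.9.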

Additional observations from a re-analysis of the deposited data

How the results depend on the processing

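Absolute depth is unknown, and 3 libraries per group limit precision. Exosc3 in siEXOSC3 libraries was past the threshold under every alternative run, with limma adjusted p at most 8.69e-04. Without a filter on low genes, siEXOSC3 decreased subunits numbered 1 in place of 3 and decreased cofactors 1 in place of 2, and the siDDX1 counts of decreased subunits and of cofactors both became 0, while the share of all tested genes past the threshold went from 32.4% to 18.4% and from 10.6% to 4.22%. Median centring gave 1 cofactor in siEXOSC3, beside 31.4% of all tested genes past the threshold. The siDDX1 count of decreased subunits was also 0 with quantile normalization (10.4% of all tested genes past the threshold). It was also 0 with median centring (10.9%) and with no trend (9.31%). After the GC and length correction it was 0 without the block (13%) and with it (22.2%). Those corrected fits hold no value for Exosc6, which has no GENCODE vM1 entry. The GC and length correction gave 2 cofactors in siDDX1, beside 13% of all genes. With the block it gave 4 in siDDX1 and 1 in siEXOSC3, beside 22.2% and 22.9% of all genes. With correction and block, decreased subunits in siEXOSC3 numbered 4, with Exosc5 added. Signs turned in siDDX1 for Exosc4 after that correction, with or without the block (-0.0357), and for Exosc8 under quantile normalization (-0.0314). Replicate numbers were not taken to pair the libraries, because they are not stated to pair plates across conditions. Deviations of same-numbered pairs correlated at 0.03, -0.31 and -0.13 in siEXOSC3 and at -0.01, 0.38 and 0.37 in siDDX1. Pairs of unlike number ran from -0.17 to 0.26 in siEXOSC3 and from -0.38 to 0.15 in siDDX1. Deviations within a group of 3 libraries constrain one another, so these values cannot decide whether the libraries were paired. With a replicate block the cofactor counts were 0 in siEXOSC3 and 3 in siDDX1, beside 21.8% and 17% of all genes. Leaving out 1 library gave 1 to 5 decreased subunits and 0 to 7 cofactors in siEXOSC3, and 0 to 1 increased subunits, 0 to 1 decreased subunits and 0 to 3 cofactors in siDDX1. Over these fits 14.3% to 43.5% of all tested genes were past the threshold in siEXOSC3 and 1.47% to 31.8% in siDDX1. Log2 changes that crossed 0 over these fits ran from -0.128 to 0.00658 (Exosc1), -0.186 to 0.0546 (Exosc2) and -0.101 to 0.0606 (Exosc4) in siEXOSC3, and from -0.0427 to 0.0571 (Exosc4) and -0.0684 to 0.0720 (Exosc8) in siDDX1. The cause of these differences was not tested.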
